A study of Mus musculus with 16 samples.

Results

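The 42 genes described here flank Mfge8 on mouse chromosome 7. They were taken by symbol from a supplied list of its neighbours, out of 24420 features in each of the deposited expression tables, and Mfge8 itself was left out. All 42 were placed with the RefSeq annotation of GRCm38.p6 (mm10), in which Mfge8 spans chr7:79133768-79149060 on the minus strand. By gene start, 8 of them lie before Mfge8, as far as 3.68 Mb away (Akap13). The other 34 lie after it, as far as 3.51 Mb away (Eftud1, found in RefSeq under Efl1). For distances, gene start means the lower chromosome coordinate of a gene on either strand, and before and after follow these coordinates. The selection rule uses position and symbol, although the list was drawn up with earlier results of these data known. The question was whether these neighbours changed in mice without Mfge8, and whether the same genes changed in a second null line whose targeted gene, Cd36, lies on chromosome 5 (17781690 to 17888959).

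Mfge8 encodes a secreted glycoprotein that binds integrins and phosphatidylserine, and Cd36 encodes a membrane receptor for long-chain fatty acids that is abundant in the absorptive epithelium of the small intestine. Neighbouring genes share a stretch of DNA that is inherited together, and they can also share regulatory elements, so the neighbours of a targeted gene can be read separately from the rest of the genome. The 42 genes have no common function. They include enzymes of DNA replication and repair, mitochondrial ribosome and DNA proteins, vesicle trafficking proteins, signalling scaffolds and receptors, transcription factors and hydrolases.

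The assay was RNA sequencing of 3′ tags, which yields about 1 read per transcript from near its polyadenylated end. The enterocyte groups held 4 WT and 5 Mfge8 null libraries of primary enterocytes, the absorptive cells of the gut lining. The intestine groups held 4 WT and 3 Cd36 null libraries of small intestinal tissue. The strain of all 4 groups is given as C57B6. The labels describe the genotypes only as WT, null or KO, and the deleted parts, the origin of the null alleles, the number of backcrosses, the age and sex of the mice and their litters are not stated.

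Promoter windows of 3 of these genes are shown because their expression carries the results that follow. Hddc3 had the largest rise among the 42 genes and was higher in both null lines. Ngrn rose in Mfge8 null enterocytes, and Homer2 had the largest fall there. The windows are printed 5′ to 3′ on the gene's own strand, from the RefSeq promoter table on GRCm38.p6. Each has 300 bases, 250 before and 50 after the transcription start that this table takes. For Hddc3 that transcription start lies inside the outermost gene start given below. The positions are chr7:80342887-80343186 for Hddc3 (plus strand), chr7:80260965-80261264 for Ngrn (plus strand) and chr7:81706876-81707175 for Homer2 (minus strand, the outermost of its 2 windows). Capitals mark matches on either strand to the ETS core TTCCGG, the GC box GGGCGG, the CCAAT box CCAAT and the TATA box TATAAA, overlapping matches included.
Hddc3 promoter: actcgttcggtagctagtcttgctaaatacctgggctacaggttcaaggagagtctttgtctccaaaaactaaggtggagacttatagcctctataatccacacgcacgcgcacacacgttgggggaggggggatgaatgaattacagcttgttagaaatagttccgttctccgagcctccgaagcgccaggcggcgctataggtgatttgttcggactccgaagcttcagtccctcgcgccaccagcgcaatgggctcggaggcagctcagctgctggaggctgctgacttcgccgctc
Ngrn promoter: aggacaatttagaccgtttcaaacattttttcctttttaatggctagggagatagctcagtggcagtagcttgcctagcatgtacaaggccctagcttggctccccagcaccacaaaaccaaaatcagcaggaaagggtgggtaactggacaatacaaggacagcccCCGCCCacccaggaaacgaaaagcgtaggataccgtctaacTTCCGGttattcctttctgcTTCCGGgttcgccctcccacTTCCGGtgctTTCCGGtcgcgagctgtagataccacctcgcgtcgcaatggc
Homer2 promoter: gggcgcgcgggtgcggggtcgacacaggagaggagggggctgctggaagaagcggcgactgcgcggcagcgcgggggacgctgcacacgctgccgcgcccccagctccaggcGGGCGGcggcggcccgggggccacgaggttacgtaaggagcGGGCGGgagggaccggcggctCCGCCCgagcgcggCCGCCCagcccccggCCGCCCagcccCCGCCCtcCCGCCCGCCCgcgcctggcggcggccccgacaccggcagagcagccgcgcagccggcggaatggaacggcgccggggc

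The Hddc3 window held none of the 4 motifs and had a GC content of 55.0%. The Ngrn window held 4 ETS cores and 1 GC box at a GC content of 52.3%, and the Homer2 window held 8 GC boxes at 82.3%. The median GC content of all 32851 windows was 52.7%. Windows were found for 38 of the 42 genes. An ETS core was present in 11 of these 38 (14.9% of all windows), a GC box in 30 (35.7% of all windows), a CCAAT box in 16 (37.4%) and a TATA box in 3 (13.6%).

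Enterocyte libraries held 1618369 to 2459812 reads and intestine libraries 850297 to 1000694. Values are normalised reads, in which each library's reads were scaled by its own size factor, and the 2 experiments were normalised separately. Mfge8 was at 14.8 ± 6.70 normalised reads in WT enterocytes (SD, n = 4) and at 3.45 ± 2.43 in Mfge8 null enterocytes (SD, n = 5). Cd36 was at 111 to 116 normalised reads in WT intestine and at 6.48 to 16.0 in Cd36 null intestine. A 3′ tag can lie outside the deleted part of a gene, so neither level checks a deletion. Mfge8 had means of 11.96 in WT and 14.2 in Cd36 null intestine, and Cd36 had means of 135 in WT and 65.8 in Mfge8 null enterocytes. Cd36 was at 106 to 153 in the WT enterocyte libraries and at 32.8 to 103 in the Mfge8 null ones. Its log2 change there of -1.10 with a standard error of 0.25 passed (limma adjusted p = 0.0234). That of Mfge8 in enterocytes, -1.87 with a standard error of 0.46, passed as well (limma adjusted p = 0.0362). The 9 pairs of intestine libraries of 1 genotype differed by about the sampling noise (chi-square per degree of freedom 0.987 to 1.12, with a chi-square p under 0.05 in 5 of the 9), against 6.26 to 20.2 in the 16 enterocyte pairs. The intestine libraries of each genotype were therefore counted as 1 sample, with ranges in place of an SD and no p-value.

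In Mfge8 null enterocytes, 4 of the flanking genes rose and 1 fell. Hddc3, a nucleotide hydrolase, was 8.51 times its WT mean, Ngrn, a mitochondrial ribosome assembly factor, was 1.80 times, and Sema4b, a transmembrane semaphorin, and Eftud1, a GTPase of ribosome maturation, were 1.90 and 1.91 times theirs. Homer2, a scaffold of glutamate receptor signalling, fell to 0.353 of its WT mean. Of the 42 genes 30 reached the minimum for testing (5 normalised reads in 4 or more libraries), and the 5 named are 16.7% of these, beside 3.21% of all 9432 genes tested (303 genes, limma, adjusted p under 0.05). At an unadjusted p under 0.05 there were 8 of the 30 and 1498 of all genes. The groups did not overlap in any library for the same 5 genes, against 6.42% of all genes tested. In sign, 23 of the 30 were higher and 7 lower in the null libraries, with a median log2 change of 0.33 beside 0.00 over all genes. Hddc3 passed the minimum only through its null libraries, here and in the intestine, so these counts describe the genes that passed and not all 42. In bulk RNA of this kind, fewer cells of a type and less RNA per cell cannot be told apart.

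In Cd36 null intestine, Hddc3 was again the gene that differed most. A gene was counted here where the mean log2(value + 1) differed by at least 1.5-fold and no WT library overlapped a null library. Hddc3 and Abhd2, a lipid hydrolase, were higher, and Vps33b, a vesicle fusion protein, and Prc1, a protein of the dividing spindle, were lower. These 4 are 15.4% of the 26 flanking genes that reached the minimum (5 normalised reads in 3 or more libraries), beside 5.78% of all 9314 genes. Hddc3 reached that minimum through the null libraries alone, so the share is a description of the genes that reached it. All 4 had a counting interval of the null to WT ratio that left out 1, a condition added after the data were seen, which 5.09% of all genes met with the fold. Without the fold, the libraries of the 2 genotypes did not overlap for 8 of the 26 genes, which were Abhd2, Ngrn, Vps33b, Prc1, Hddc3, Iqgap1, Homer2 and Eftud1, against 16.5% of all genes. In sign, 15 of the 26 were higher and 11 lower, and the median log2 change was 0.03 beside -0.00 over all genes.

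**Figure D1:**
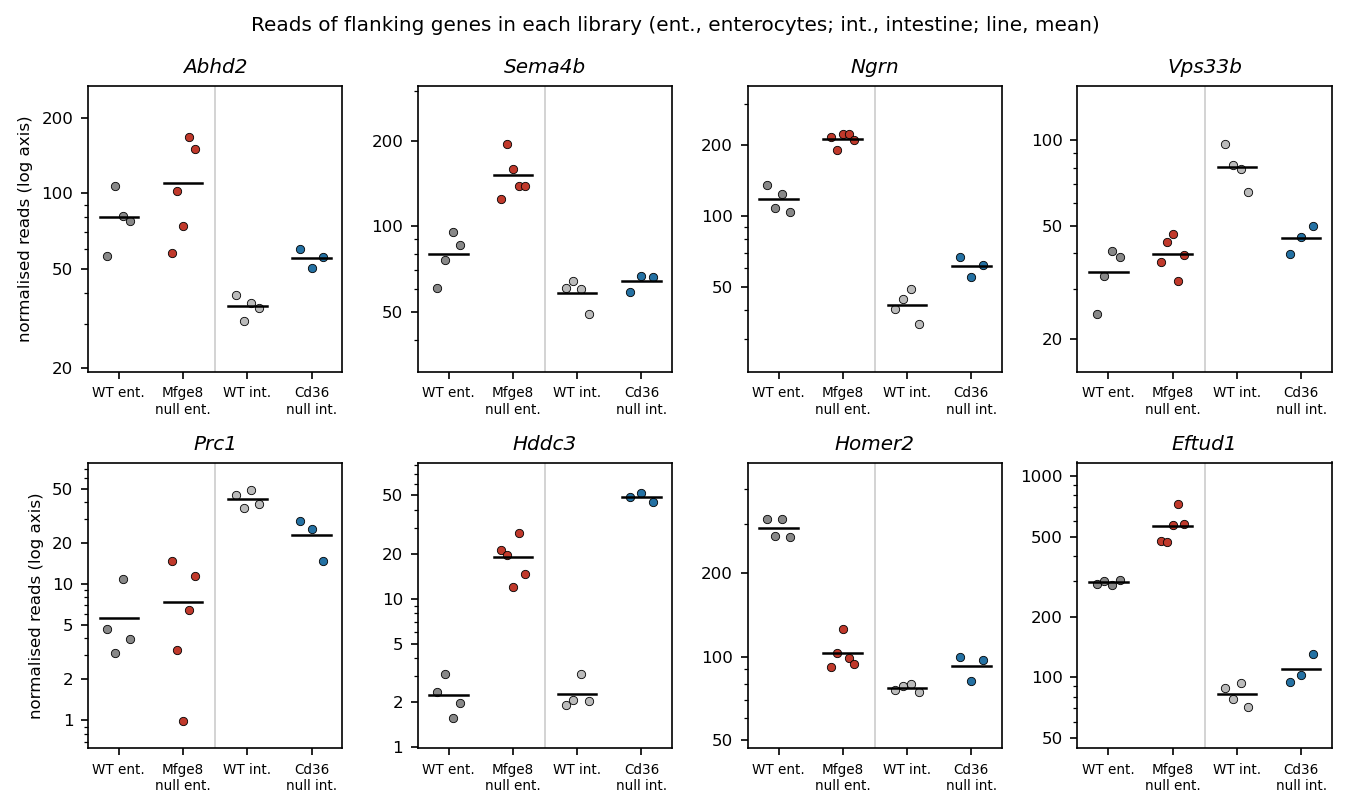
Normalised reads (log axis) of the 8 flanking genes that changed in Mfge8 null enterocytes or were past the fold rule in Cd36 null intestine. Each point is a library and each line a group mean; Hddc3 lies at 1.57 to 3.12 in all 8 WT libraries and at 11.99 or more in all 8 null libraries.

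Among the enzymes, transporters and matrix proteins, Hddc3 (chr7:80343075-80346716, plus strand, 1.21 Mb after Mfge8) encodes an HD-domain hydrolase, the animal relative of bacterial ppGpp hydrolases. In WT enterocytes it was at 2.34, 3.12, 1.57 and 1.99 normalised reads, from 2 or 3 reads a library. In Mfge8 null enterocytes it was at 21.5, 19.7, 11.99, 27.8 and 14.8, from 12 to 26 reads. Every null library was above every WT library, and the lowest null value was several times the highest WT value. The group values were 2.25 ± 0.658 (SD, n = 4) and 19.2 ± 6.17 (SD, n = 5), for a log2 change of 2.60 (standard error 0.37, limma adjusted p = 0.000624). The fold and the log2 change differ because the pseudocount of 1 shrinks the change of a gene this low in WT. Hddc3 reached the minimum for testing only through its null libraries, so this p-value is a description.

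In the intestine, Hddc3 was at 1.92, 2.07, 3.12 and 2.05 normalised reads in WT and at 48.9, 52.2 and 45.3 in Cd36 null libraries. WT libraries again held 2 or 3 reads each, 9 in all, and the null libraries 152 in all. The ratio per unit of depth was 21.3 with a 95% counting interval of 10.9 to 47.5, and the log2 change was 3.93. The WT means of the separately normalised experiments were 2.25 in enterocytes and 2.29 in intestine, and the null means were 19.2 and 48.8. In the GENCODE M21 gene models the last 500 bases of Hddc3 overlap an exon of Gm18310 on the opposite strand. Gm18310 has no values of its own in the deposited data. Whether the counting used strand is not given in the sources used here, so reads of the 2 could not be separated.

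Abhd2 (chr7:79273266-79361601, plus strand), which encodes a lipid hydrolase, was the tested gene nearest to Mfge8 on its far side, at 0.139 Mb. In the intestine it was at 39.4, 31.0, 36.4 and 34.9 normalised reads in WT and at 59.7, 50.1 and 55.5 in Cd36 null libraries. All 3 null libraries lay above all 4 WT libraries, with a ratio of 1.56 and a counting interval of 1.24 to 1.96. In enterocytes it was at 56.1, 107, 80.7 and 77.4 in WT and at 57.8, 102, 73.9, 167 and 150.1 in Mfge8 null libraries. These groups overlapped, and the log2 change of 0.37 with a standard error of 0.28 did not pass (limma adjusted p = 0.566). Slc28a1, a nucleoside transporter of the brush border, was at 81.4 to 152 in WT and 40.7 to 332 in Mfge8 null enterocytes, the latter range enclosing the former. Its intestine libraries overlapped as well, with a ratio of 0.776. Hapln3, a matrix link protein whose start lies nearest to that of Mfge8, had no read in any library, and Tm6sf1 had none in enterocytes and up to 4 in an intestine library.

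Among the 5 mitochondrial genes, Ngrn rose in Mfge8 null enterocytes and none was past the fold rule in Cd36 null intestine. Ngrn (chr7:80261215-80265378, plus strand, 1.13 Mb after Mfge8) was at 136, 108, 125 and 104 normalised reads in WT enterocytes. In the Mfge8 null libraries it was at 216, 191, 224, 224 and 212. The groups were well apart, with a log2 change of 0.85 and a standard error of 0.14 (limma adjusted p = 0.00274). In intestine it was at 40.3, 44.4, 48.8 and 34.9 in WT and at 67.0, 55.4 and 62.0 in Cd36 null libraries. These did not overlap either, and the log2 change of 0.54 was just under the 1.5-fold limit. The ratio was 1.47 with a counting interval of 1.19 to 1.82. Idh2, the mitochondrial isocitrate dehydrogenase, was at 80.1 ± 23.4 (SD, n = 4) in WT and 125 ± 25.2 (SD, n = 5) in Mfge8 null enterocytes, which did not pass (limma adjusted p = 0.120), and its intestine ratio was 1.01.

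The ribosomal protein genes Mrps11 and Mrpl46 adjoin each other before Mfge8, and Polg, the mitochondrial DNA polymerase, starts 0.312 Mb after it. Mrps11 was at 25.7, 10.4, 7.84 and 22.8 normalised reads in WT and at 21.5, 13.2, 14.0, 21.4 and 13.9 in Mfge8 null enterocytes, with a log2 change of 0.13 (limma adjusted p = 0.905). Polg was at 9.35, 11.4, 4.70 and 9.93 in WT and at 11.8, 8.77, 7.99, 16.1 and 11.5 in Mfge8 null enterocytes, with a log2 change of 0.33 (limma adjusted p = 0.716). In both the null values lay among or close to the WT values. In intestine Mrps11 was at 5.76, 2.07, 6.23 and 8.21 in WT and at 3.62, 6.39 and 2.78 in Cd36 null libraries. Polg was at 9.60, 5.16, 8.31 and 5.13 in WT and at 5.43, 11.7 and 9.25 in Cd36 null libraries. At 2 to 11 reads a library the intestine values could not show a small difference, and the groups overlapped for both genes. Mrpl46 had a log2 change of -0.34 in enterocytes (limma adjusted p = 0.558) and a ratio of 0.918 in intestine.

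Among the signalling genes, Homer2 fell and Sema4b rose in Mfge8 null enterocytes. Homer2 (chr7:81600481-81706925, minus strand, 2.47 Mb after Mfge8) encodes a scaffold that links glutamate and IP3 receptors. It was at 312, 272, 312 and 269 normalised reads in WT and at 92.1, 103, 126, 98.5 and 94.3 in Mfge8 null enterocytes. The groups were far apart and each was narrow, at 291 ± 23.9 (SD, n = 4) and 103 ± 13.6 (SD, n = 5). This is a log2 change of -1.50, standard error 0.15 (limma adjusted p = 1.93e-05). In intestine Homer2 was at 75.9, 78.5, 80.0 and 74.9 in WT and at 99.5, 82.0 and 97.1 in Cd36 null libraries. Here the null libraries were the higher ones, by a ratio of 1.21 with a counting interval of 1.03 to 1.42, under the fold rule.

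Sema4b (chr7:80186870-80226646, plus strand, 1.05 Mb after Mfge8) encodes a semaphorin, a family of guidance ligands and receptors. It was at 60.8, 75.9, 95.6 and 86.4 normalised reads in WT and at 125, 195, 159.8, 139 and 139 in Mfge8 null enterocytes. All null libraries were above all WT libraries, with a log2 change of 0.92 and a standard error of 0.18 (limma adjusted p = 0.00821). In intestine it was at 60.5, 64.0, 60.3 and 49.3 in WT and at 58.8, 67.1 and 66.6 in Cd36 null libraries, which overlapped. Cib1, a calcium and integrin binding protein whose gene follows Sema4b, had a log2 change of 0.05 in enterocytes (limma adjusted p = 0.920) and a ratio of 1.01 in intestine. Crtc3, a coactivator of CREB, Fes, a tyrosine kinase, and Nmb, the peptide neuromedin B, did not pass in enterocytes, with log2 changes of -0.45, 0.77 and 0.41. Pde8a, a cyclic AMP phosphodiesterase, was under the minimum in both experiments, at up to 4 reads in enterocytes and up to 7 in intestine.

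Of the genes for transcription, ubiquitin ligases and RNA, Eftud1 rose in Mfge8 null enterocytes. Eftud1 (chr7:82648603-82777852, plus strand), the farthest of the flanking genes after Mfge8, encodes the GTPase that releases eIF6 from the large ribosomal subunit. It was at 291, 302, 286 and 303 normalised reads in WT and at 476, 469, 568.3, 729 and 574 in Mfge8 null enterocytes. The WT libraries lay close together and well below the null libraries, with a log2 change of 0.91 and a standard error of 0.15 (limma adjusted p = 0.00233). In intestine it was at 88.4, 77.4, 93.5 and 70.8 in WT and at 95.0, 102 and 130.4 in Cd36 null libraries, without overlap. The ratio was 1.32 with a counting interval of 1.13 to 1.55, under the fold rule.

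Det1, a ubiquitin ligase component and the tested gene nearest to Mfge8 on its near side (0.312 Mb before it), was at 11.7, 10.4, 11.8 and 5.96 normalised reads in WT and at 1.96, 13.2, 0.999, 5.35 and 6.56 in Mfge8 null enterocytes. The null values reached from well below to above the WT values, and the log2 change of -1.02 with a standard error of 0.53 did not pass (limma adjusted p = 0.369). In intestine it was at 7.68, 5.16, 4.16 and 6.16 in WT and at 7.24, 8.52 and 1.85 in Cd36 null libraries, which overlapped. The zinc finger genes Zfp710 and Zfp592 did not pass in enterocytes, with log2 changes of 0.64 (limma adjusted p = 0.201) and 0.11 (limma adjusted p = 0.838). Btbd1, a Cullin 3 adaptor, was at 12.5 to 19.2 in WT and 7.24 to 12.8 in Cd36 null intestine, and these ranges overlapped, with a ratio of 0.601. Klhl25 and Wdr73 were tested in enterocytes only and did not pass, with log2 changes of 0.46 and 0.91. Isg20, Rccd1 and Zscan2 were under the minimum in both experiments, at no more than 5 reads in any library.

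Vesicle trafficking, protein processing and cytoskeletal genes held no change that passed in Mfge8 null enterocytes, in 8 tested of 10, and 1 lower gene of 7 in Cd36 null intestine. That gene was Vps33b (chr7:80269621-80291579), a Sec1/Munc18 family protein of endosome and lysosome fusion that starts 1.14 Mb after Mfge8, next to Ngrn. In intestine it was at 97.0, 81.6, 79.0 and 65.7 normalised reads in WT and at 39.8, 45.8 and 49.95 in Cd36 null libraries. The groups did not overlap, with a ratio of 0.556 and a counting interval of 0.453 to 0.680. In enterocytes it was at 24.6, 33.3, 40.8 and 38.7 in WT and at 37.2, 43.8, 46.9, 32.1 and 39.4 in Mfge8 null libraries. These overlapped, for a log2 change of 0.22, standard error 0.21 (limma adjusted p = 0.672). Iqgap1, a scaffold of actin and adhesion signalling, was at 304 to 326 in WT and 378 to 438 in Cd36 null intestine, without overlap and under the fold rule at a ratio of 1.28, while its log2 change in enterocytes was 0.07 (limma adjusted p = 0.866).

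Furin, the proprotein convertase that starts 1.26 Mb after Mfge8, was at 462 ± 55.2 (SD, n = 4) in WT and 595 ± 155 (SD, n = 5) in Mfge8 null enterocytes, which did not pass (limma adjusted p = 0.377). Unc45a, a myosin chaperone, had a log2 change of 0.36 (limma adjusted p = 0.373), and Sec11a, a signal peptidase subunit, of -0.07 (limma adjusted p = 0.892). Akap13, an anchor of protein kinase A, was at 80.7, 94.6, 83.9 and 169 in WT and at 194, 105, 195, 168 and 157 in Mfge8 null enterocytes. The WT library with the highest value lay among the null libraries, and the log2 change of 0.65 did not pass (limma adjusted p = 0.160). The other 2 tested genes of the group, Ap3s2, a subunit of the AP-3 adaptor, and Man2a2, a Golgi mannosidase, had log2 changes of 0.22 and 0.81 that did not pass. Kif7 and Sh3gl3 had no read in any library.

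Of the 5 genes for replication, repair and mitosis, Prc1 was the only one tested in both experiments. Prc1 (chr7:80294445-80316259, plus strand) encodes a microtubule bundling protein of the spindle midzone. In intestine it was at 45.1, 36.1, 48.8 and 39.0 normalised reads in WT and at 29.0, 25.6 and 14.8 in Cd36 null libraries. All 3 null libraries lay below all 4 WT libraries, with a ratio of 0.544 and a counting interval of 0.407 to 0.722. Proliferation markers were lower in the same libraries: 5 of 18 tested were past the fold rule, all lower, with a median log2 change of -0.43 and summed values of 648 to 706 in WT and 480 to 507 in null libraries. Their part in the value of Prc1 was not tested. In enterocytes Prc1 was at 4.68, 3.12, 10.98 and 3.97 in WT and at 14.7, 3.29, 0.999, 6.42 and 11.5 in Mfge8 null libraries, with a log2 change of 0.11 and a standard error of 0.58 (limma adjusted p = 0.959). At 1 to 15 reads a library a difference of moderate size could not be shown. Blm, the Bloom syndrome helicase, was tested in intestine only, with a ratio of 0.884 and overlapping libraries, and Aen, Fanci and Ticrr were under the minimum in both experiments.

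Of the 25 flanking genes tested in both experiments, Hddc3 was the only one that rose in Mfge8 null enterocytes and was past the fold rule in Cd36 null intestine. Over all 8560 genes tested in both, 0.292% met both criteria in the same direction (25 genes). It reached the minimum of either experiment only through null libraries, so this count is a description. The 2 experiments share no library. The sign was the same in both lines for 18 of the 25 genes, beside 51.4% of all genes tested in both. Ngrn and Eftud1 rose in Mfge8 null enterocytes and were higher without overlap in Cd36 null intestine, under the fold rule. Sema4b overlapped in intestine, with a ratio of 1.09 and a counting interval of 0.900 to 1.33. Homer2 had opposite signs in the 2 lines, without overlap in either.

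**Figure D2:**
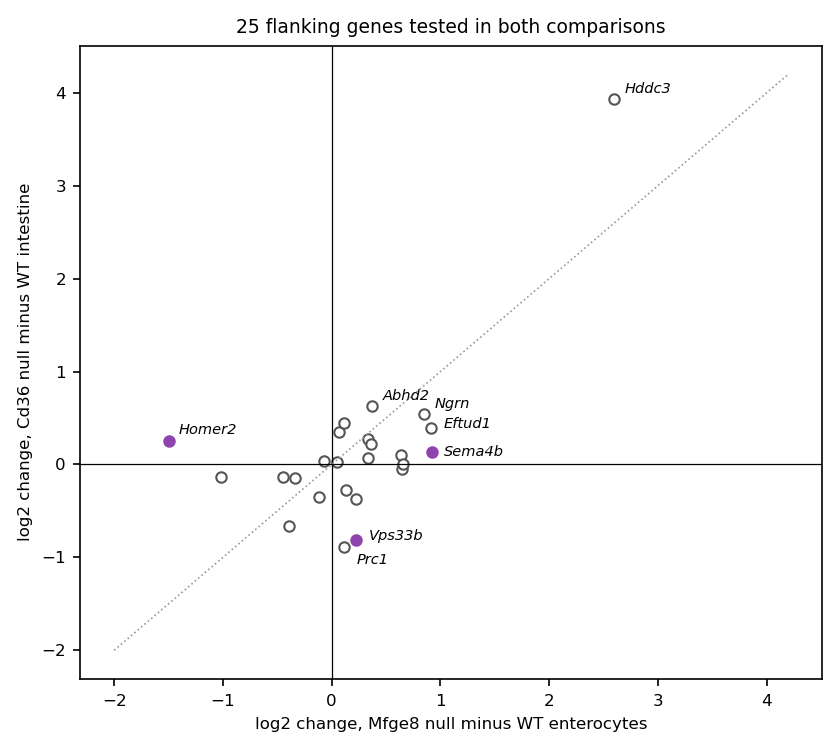
Log2 changes of the 25 flanking genes tested in both experiments, with Mfge8 null minus WT enterocytes on the horizontal axis and Cd36 null minus WT intestine on the vertical axis; the dotted line marks equal changes. Filled points met a limma adjusted p under 0.05 for the difference, with libraries taken as replicates, and Hddc3 stands alone at the upper right, at 2.60 and 3.93.

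The difference between the 2 changes was fitted in 1 model of all 16 libraries. This model takes the intestine libraries as replicates, although they count as 1 sample per genotype, so its p-values compare these libraries and do not show a difference between the null lines. The threshold was met by 3 of the 25 genes (12%), beside 4.56% of all 8560, with 7 and 1432 at an unadjusted p under 0.05. The change of Homer2 was lower in the Mfge8 line, by a log2 difference of -1.76 with a standard error of 0.18 (limma adjusted p = 5.63e-07). The change of Vps33b was higher in the Mfge8 line by 1.04 with a standard error of 0.26 (limma adjusted p = 0.0195), and that of Sema4b by 0.79 with a standard error of 0.22 (limma adjusted p = 0.0367). Hddc3 had a difference of -1.33 with a standard error of 0.44 that did not meet it (limma adjusted p = 0.0903). Ngrn, Eftud1 and Abhd2 did not meet it either, with differences of 0.31, 0.52 and -0.25. Cell source (isolated cells or tissue) differs between the arms together with the targeted gene, and the 2 cannot be told apart. The threshold was missed for Sema4b without any 1 of 9 libraries, at an adjusted p of 0.0526 to 0.119, and without array weights (adjusted p = 0.0733). It was missed for Vps33b without WT enterocytes 1 (adjusted p = 0.0731) or Cd36 null intestine 1 (adjusted p = 0.0533). At a pseudocount of 5 the threshold was met for Hddc3 as well.

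**Figure D3:**
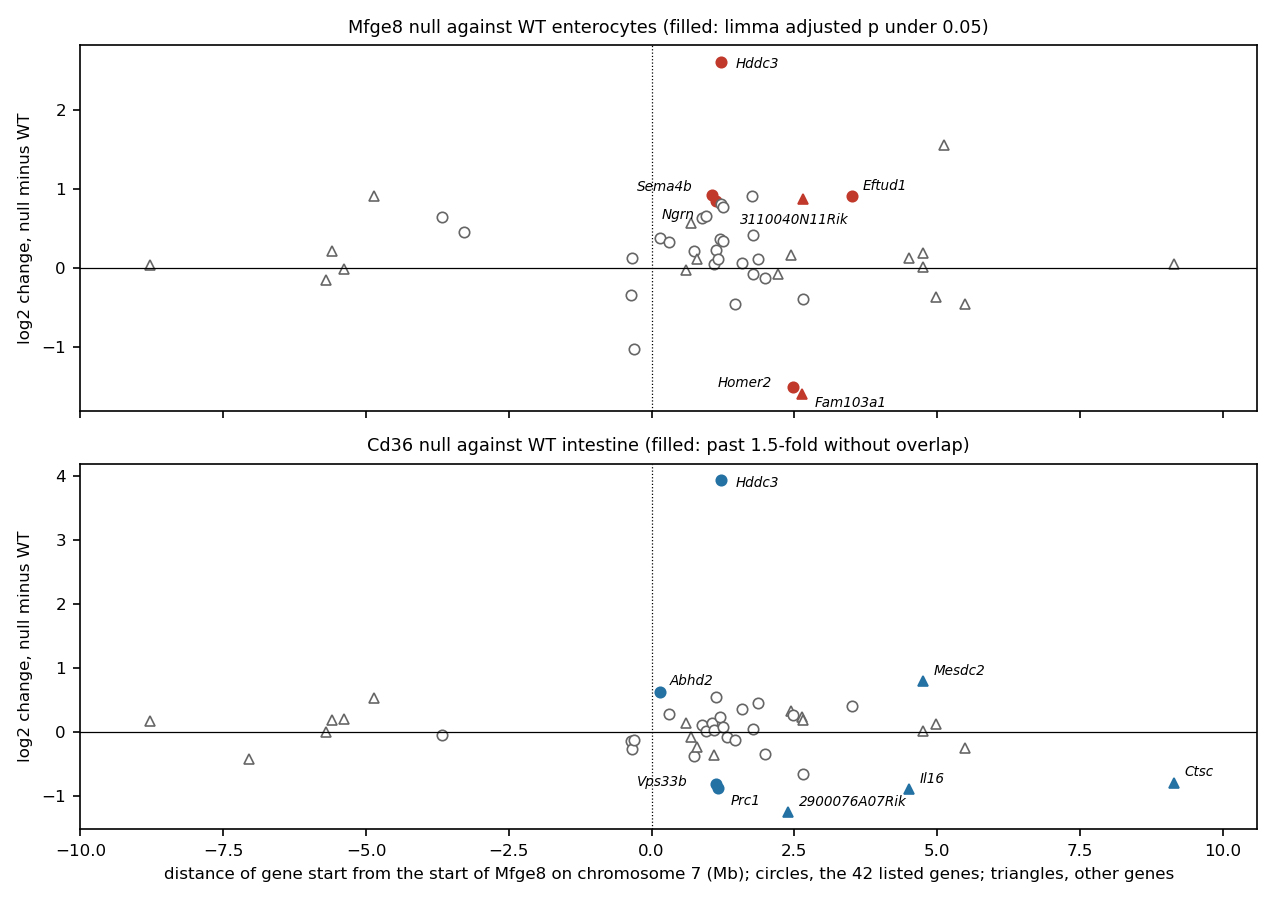
Log2 change (null minus WT) of each tested gene within 10 Mb of Mfge8 against the distance of its start from that of Mfge8, in enterocytes (top) and intestine (bottom). Circles are the 42 flanking genes and triangles other genes. Filled symbols, which passed the criterion of that experiment, lie after Mfge8 in both panels, as do most of the tested genes.

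By position, the flanking genes that passed all lay after Mfge8. Of the tested ones 0 of 5 before and 5 of 25 after it passed in Mfge8 null enterocytes, and 0 of 4 and 4 of 22 in Cd36 null intestine. So few tested genes before Mfge8 cannot show a difference between the sides. Of the 2 nearest tested genes on each side, Det1, Mrps11 and Polg did not pass in either experiment, and Abhd2, the nearest of all, was past the fold rule in intestine only. Genes that passed stood beside genes that did not: Cib1 lies between Sema4b and Ngrn, and Unc45a lies between Prc1 and Hddc3.

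Among the 113 other genes within 10 Mb of Mfge8, 19 were tested in enterocytes. Of these, 2 passed (10.5%, beside 3.21% of all genes tested), both of them between Homer2 and Btbd1. Fam103a1 (RefSeq symbol Ramac, chr7:81762953-81769490), which encodes a subunit of the mRNA cap methyltransferase, was at 116, 136, 122 and 152 normalised reads in WT and at 60.7, 35.1, 47.9, 41.8 and 32.8 in Mfge8 null enterocytes. It lies 2.63 Mb after Mfge8, and like its neighbour Homer2 it fell without overlap, with a log2 change of -1.59 and a standard error of 0.20 (limma adjusted p = 0.000194). The transcript 3110040N11Rik (chr7:81780283-81789499) was at 17.5, 14.6, 14.9 and 22.8 in WT and at 32.3, 31.8, 28.0, 35.3 and 34.4 in Mfge8 null enterocytes, and rose by 0.87 with a standard error of 0.23 (limma adjusted p = 0.0471). In intestine Fam103a1 was at 5.76 to 10.4 in WT and 7.24 to 12.03 in Cd36 null libraries, and 3110040N11Rik at 2.08 to 6.16 and 3.70 to 7.24, with overlap in both. Of these other genes 20 were tested in intestine and 4 were past the fold rule (20%, beside 5.78% of all genes). Mesdc2 was higher at a ratio of 1.80, and Ctsc, Il16 and 2900076A07Rik were lower at 0.573, 0.481 and 0.395. Il16 and 2900076A07Rik reached the minimum only through WT libraries, so the share is a description.

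Counted over all tested genes by distance from Mfge8, the share that passed in enterocytes was 12.9% within 2.5 Mb (4 of 31), 27.3% from 2.5 to 5 Mb (3 of 11), 0 of 7 from 5 to 10 Mb and 1.89% from 10 to 20 Mb (1 of 53). It was 8.14% from 20 to 40 Mb (14 of 172), 3.64% beyond 40 Mb (15 of 412) and 3.03% on other chromosomes (264 of 8722). In Cd36 null intestine the shares were 17.2% within 2.5 Mb (5 of 29), 2 of 10 from 2.5 to 5 Mb, 1 of 7 from 5 to 10 Mb and 3.77% from 10 to 20 Mb (2 of 53). They were 11.2% from 20 to 40 Mb (19 of 170), 8.23% beyond 40 Mb (33 of 401) and 5.52% on other chromosomes (476 of 8621). Within 10 Mb of Mfge8 the shares were 14.3% (7 of 49) in Mfge8 null enterocytes and 17.4% (8 of 46) in Cd36 null intestine. Within 10 Mb of Cd36 on chromosome 5 they were 2.33% (1 of 43) and 6.98% (3 of 43). The share within 10 Mb of Mfge8 was above that of other chromosomes in both lines, but so was the share from 20 to 40 Mb, and none of these differences was tested. Bins of 7 to 31 genes give coarse shares, and neighbouring genes are not independent of each other. Hddc3 in both experiments, and Il16 and 2900076A07Rik in intestine, reached the minimum only through the group where they were higher. The shares that include them are a description.

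**Figure D4:**
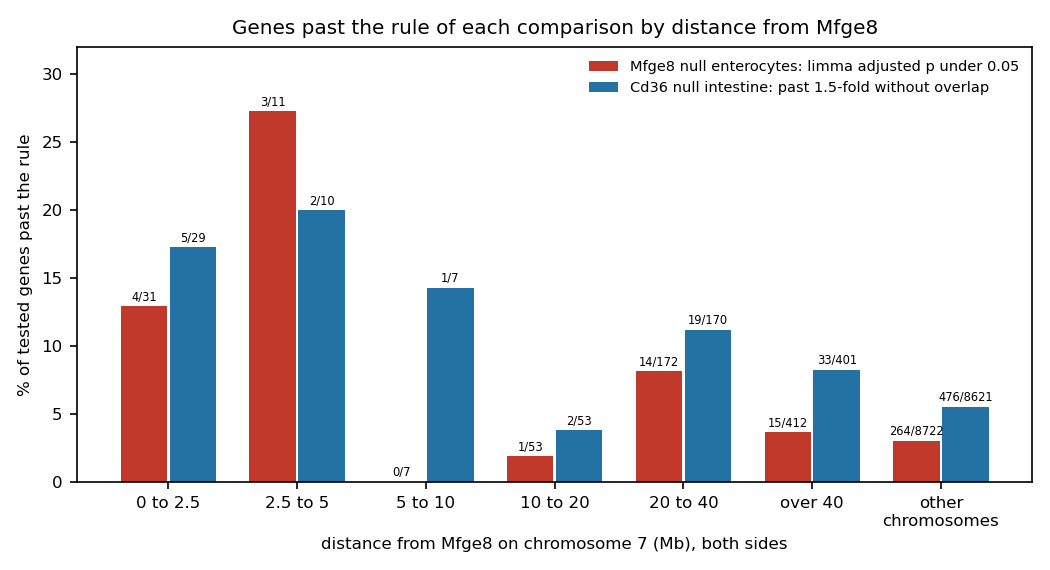
Percentage of tested genes past the criterion of each experiment (vertical axis) by distance from Mfge8 on chromosome 7, both sides together, and on the other chromosomes. The numbers over the bars are genes past the criterion of genes tested. The bars within 5 Mb stand above those of other chromosomes in both experiments, from 10 to 31 genes each. These bars include genes that reached the minimum only through the group where they were higher, so they are a description.

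Gene lists of other cell types were summed in each library. In Mfge8 null enterocytes the 7 MHC class II genes all rose, with a median log2 change of 2.67 and summed values of 330 to 916 in WT and 3514 to 5488 in null libraries. The 11 T cell and intraepithelial lymphocyte markers were at a summed 1389 to 4273 in WT and 3766 to 9187 in null enterocytes, a median log2 change of 0.96 with none past the test. B cell and plasma cell markers passed in 1 of 4, with summed values of 17.5 to 124 in WT and 206 to 501 in null enterocytes, which did not overlap. Myeloid markers passed in 0 of 4, at a median of -0.22 and summed values of 70.6 to 117 in WT and 48.2 to 148 in null enterocytes. Enterocyte markers passed in 0 of 10, with a median of 0.04 and summed values of 54702 to 84534 in WT and 59618 to 84584 in null enterocytes, so the markers of the labelled cell type were abundant in both groups. Of 11 stromal and muscle markers, Col1a1, Lum, Myh11 and Cdh5 had no read in any enterocyte library, and Cdh5 had none in intestine either. The 11 markers summed to 10.2 to 16.6 in WT and 7.50 to 23.0 in null enterocytes, and the 1 tested did not pass. In Cd36 null intestine 0 of 7 MHC class II genes and 5 of 11 lymphocyte markers were past the fold rule, the latter lower, and 7 of 12 interferon response genes were higher. Ileal markers summed to 1124 to 1176 in WT and 771 to 836 in Cd36 null intestine, with 1 of 6 higher and 2 lower past the fold rule. Proximal markers summed to 980 to 1048 and 1145 to 1204, with 0 of 5 past it. In enterocytes the sums of both lists overlapped between the genotypes, with 1 proximal gene lower and 1 ileal gene higher. The part of these cell types in the values of the flanking genes was not tested, nor was that of gut region in intestine.

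By the GENCODE M21 models, 17 of the 42 genes share exon sequence with another gene, and in 8 of them the overlap reaches the last 500 bases, where 3′ tags fall. Besides Hddc3 these include Prc1, whose end overlaps Rccd1 on the opposite strand, Fanci with Polg and Ticrr with Kif7. Rccd1 was at 0 in enterocytes and at no more than 1 read in an intestine library. Homer2 overlaps the antisense transcript Gm44570 and Eftud1 overlaps Gm45807, in both cases outside the last 500 bases.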

How the data were processed

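Normalised read counts, a signal per gene and library, were deposited by the authors in 2 tables of 24420 features. Per the submitters' processing notes the build was mm10 and the tools DESeq2 2.11.40, HTSeq 0.91, HISAT2 2.1.0 and Trimmomatic 0.38.1. Their order and settings, the use of molecular identifiers and the strand setting are not given in the sources used here, so intervals cover counting error only. All values of a library (100%) were multiples of 1 step to a tolerance of 1e-06, and dividing by that step gave whole reads. For WT 4 and Mfge8 null 3 enterocytes, with size factors near 1, this step is less certain.

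A gene was tested where it reached 5 normalised reads in a number of libraries equal to the smaller group's. The test was limma 3.58.1 in R 4.3.3 with trend, on log2(value + 1), and 2-sided p-values were adjusted over all genes by Benjamini-Hochberg, with a threshold of 0.05. Log2 changes and the fold rule are on this scale, which understates low genes. Multiples of a WT mean are quotients of mean normalised reads, and ratios in intestine are of reads per unit of depth. Chi-square tests of library pairs took genes whose reads summed to 20 or more. Ratios in intestine have exact binomial 95% counting intervals. The difference between experiments was fitted with limma on the joined values with array weights, with intestine libraries as replicates. edgeR 4.0.16 and DESeq2 1.42.0 on whole reads were alternatives. Procedures were tested on simulated data. Separate animals are not named in the labels, and p-values here cover the spread among libraries, which may be technical.

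The 42 genes, the marker lists and the tests were chosen with earlier results of these data known. Values in each library were given, by a rule, for genes past the criterion of either experiment or of the difference, for the 2 tested genes nearest to Mfge8 on each side, and for other genes within 10 Mb that passed in enterocytes. The remaining members are accounted for by level or change.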

Additional observations from a re-analysis of the deposited data

Results flagged for a closer look

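Homer2 had a log2 difference of -1.76 between the changes in Mfge8 null enterocytes and Cd36 null intestine (standard error 0.18, limma adjusted p = 5.63e-07). The p-values of these differences take intestine libraries as replicates and compare the libraries, not the null lines. It was lower in 5 of 5 Mfge8 null libraries than in any WT library, and higher in 3 of 3 Cd36 null libraries. The difference for Vps33b was 1.04 (limma adjusted p = 0.0195) and for Sema4b 0.79 (limma adjusted p = 0.0367).

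Single libraries stood apart from the rest of their group in 4 of the 88 groups of 4 or 5 libraries examined, where chance gives about 1 in 20. Akap13 was at 169 in WT enterocytes 4, against 80.7 to 94.6 in the other 3, and Crtc3 was at 21.8 in the same library. Wdr73 was at 7.28 in WT enterocytes 2. Hddc3 was at 3.12 in WT intestine 3, which is 3 reads against 2 in each of the others.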

How the results depend on the processing

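In Mfge8 null enterocytes the count of 5 flanking genes was 4 to 6 over 21 alternatives, and 5 to 6 when each library was left out in turn. It was 6 without WT 4, when Akap13 passed as well, and 4 at a minimum of 20, which Hddc3 did not reach. Homer2, Ngrn, Eftud1 and Sema4b passed in all 21 alternatives, at adjusted p-values of up to 0.00180, 0.0242, 0.0277 and 0.0474. Hddc3 passed in all 20 that tested it. It reached the minimum of 5 normalised reads only through its null libraries, so its passes are a description. Over all genes the count of 303 varied more, from 140 without WT 1 to 430 with DESeq2, with 147 without the trend, 173 without WT 2, 185 without null 3 and 199 without null 5. Mfge8 itself lost its call in 9 of 20 alternatives.

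In Cd36 null intestine the count of 4 was 7 at the lower fold limit tried, 1 at a fold of 2 (Hddc3), 8 with limma across libraries and 8 with edgeR, which was added after seeing the data. It was 3 to 6 when each library was left out. Abhd2 lay under the rule without WT 2, without null 1, at a pseudocount of 5 and at a fold of 2. Over all genes the count of 538 was 994, 191, 699 and 754 in those 4 settings, 354 at a pseudocount of 5, 241 at a minimum of 20 and 789 with no minimum. In the difference the count of 3 was 1 to 4 when each library was left out, and 1 without WT enterocytes 1 or without Cd36 null 1. It was 4 at a pseudocount of 5, where Hddc3 passed as well. The cause of these shifts was not tested.

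Libraries with the same number deviated together with correlations of -0.12 to 0.214 in enterocytes and -0.0147 to 0.00334 in intestine, so the numbers were not taken as pairs. With the replicate number as a block the counts were 5 in enterocytes, 5 in intestine (limma across libraries) and 3 in the difference. The minimum left 12 flanking genes untested in enterocytes and 16 in intestine; for those with no read, low expression and none cannot be separated.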
